A study of Arabidopsis thaliana with 9 samples.

Results

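Leaf mRNA of the VQ28 overexpression line VQ28OE9 was compared with that of the line labelled VQ28KO12, with 3 libraries each. The set described holds the 6 libraries of these lines out of 9, and the 16050 of 33610 genes whose FPKM averaged 1 or more across all 9 libraries. FPKM corrects a gene's fragments for its length and for sequencing depth. A gene can meet this limit through its level in a single genotype. The genes nearest that limit were AT5G49500, just outside at 0.9998 FPKM, and AT5G47380, just inside at 1.0001 FPKM. The plants were Arabidopsis thaliana of the accession Col-0, the wild type (WT), or the lines VQ28OE9 and VQ28KO12. Rosette leaves were detached at 30 days from uninfected plants kept on 13 h of light and 11 h of dark. The labels give 1 overexpression line and 1 knockout line. Neither the promoter driving VQ28 nor the kind of knockout allele is stated there. Nothing says that the 3 replicates of a genotype were different plants, so the p-values here reflect library-to-library spread that could be technical.

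VQ proteins are small plant cofactors that carry a short VQ motif and bind WRKY transcription factors, the family that recognises the W-box in promoters of defence genes. In leaves, growth rests on auxin, brassinosteroid and gibberellin signals that loosen the cell wall through expansins and xyloglucan and pectin enzymes. Defence rests on cell surface and intracellular receptors, calcium and MAP kinase relays and salicylic acid, while abscisic acid governs the response to water loss.

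VQ28 was taken as AT4G20000 (chromosome 4, 10838310 to 10839142, plus strand, in the coordinates of the deposited table), from the published numbering of the family. Its level was 6244, 4665 and 5942 FPKM in VQ28OE9. In the libraries labelled VQ28KO12 it was 8.36 FPKM in replicate 1 and 10.1 FPKM in replicate 2, and replicate 3 had 0 units, which allows up to 3 fragments. The lines did not overlap, and the log2 fold change was 9.89 ± 1.66 (SE, edgeR adjusted p = 0.0139). A two-sided exact permutation test gave p = 0.1, the smallest that 3 against 3 libraries can give. Because replicates 1 and 2 hold VQ28 mRNA near the WT mean of 5.29 ± 4.3 FPKM (SD, n = 3), those libraries are named by their label. Without VQ28KO12 replicate 1 the adjusted p was 0.061.

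The libraries held 64552605 to 95223547 count units, where 1 fragment is worth about 4 units, and 20510 to 20956 genes above 0. On the first principal component, with 35.5% of the variance, the VQ28OE9 libraries lay at 37.9 to 49.3, the libraries labelled VQ28KO12 at -33.4 to -13.3 and WT at -36.5 to -2.4. On the second, with 16.7%, WT replicate 3 (-33.6) and VQ28OE9 replicate 3 (-37.8) stood apart from the other 7. Among leaf cell types, 1 of the 25 tested markers changed, the epidermal factor gene ATML1. Summed marker levels in VQ28KO12 and VQ28OE9 were 27.9 to 35.4 and 33.8 to 35.2 FPKM for guard cells, and 93.3 to 115 and 76.5 to 98 FPKM for epidermis. The sums were 20820 to 26943 and 17492 to 21274 FPKM for mesophyll, 417 to 446 and 380 to 427 FPKM for vascular tissue, and 2.96 to 5.11 and 2 to 3.82 FPKM for dividing cells. Root markers summed to at most 0.414 FPKM in any library, with PHT1;1, IRT1 and SHV2 at 0 in all 9, and flower and seed markers to at most 0.107 FPKM, with OLEO1 and CRA1 at 0. These are whole-leaf samples, so fewer cells of a type and less RNA per cell cannot be told apart.

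In VQ28OE9 against VQ28KO12, 1016 of the 16050 genes changed (6.33%) by edgeR's quasi-likelihood test with Benjamini-Hochberg adjustment. Of these, 595 rose (3.71%) and 421 fell (2.62%). All 595 rises and 419 of the 421 falls had libraries that did not overlap, against 12.1% and 14.4% of all tested genes with FPKM separate in each direction. Calls and separation come from the same values, so this adds no support to the calls. Rises made up 58.6% of the calls, and 50.5% (526 higher and 515 lower) with upper-quartile scaling. The median log2 fold change was 1.1 among rises, -0.96 among falls and -0.01 over all genes tested. By size, 348 rises and 204 falls reached 1 on the log2 scale, and 69 and 41 reached 2. Each line shares the WT libraries as a reference, against which 220 genes were higher (1.37%) and 150 lower (0.935%) in VQ28OE9. In VQ28KO12 against WT edgeR called 1 gene higher (0.00623%) and 0 lower, beside 447 higher and 361 lower at an unadjusted p under 0.05. DESeq2 called 27 higher and 12 lower there. The number of calls rested on single libraries. It was 131 without VQ28KO12 replicate 1, 167 without VQ28KO12 replicate 3, 326 without VQ28OE9 replicate 1, 507 without VQ28OE9 replicate 2 and 519 without VQ28OE9 replicate 3. Without WT replicate 3 and VQ28OE9 replicate 3 together it was 1058, of which 715 were among the 1016.

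Genes were grouped into 18 lists for growth, cell wall and photosynthesis and 29 for stress and defence, some of which share members. Rises and falls are those of VQ28OE9 against VQ28KO12 and do not say which line departed from WT. Every list count below is to be read beside the shares over all genes tested, 3.71% higher and 2.62% lower. The lists were chosen with earlier results of these data known, so their shares describe them and are no test of enrichment. In the growth and cell wall lists, 72 of 495 tested genes fell (14.55%) and 10 rose (2.02%), with a median log2 fold change of -0.24. In the stress and defence lists, 123 of 970 tested genes rose (12.68%) and 35 fell (3.61%), with a median of 0.23. VQ28 itself, the overexpressed gene, is counted among these rises through the VQ family list. The falls in the first class numbered 8 without VQ28KO12 replicate 1, 13 without VQ28KO12 replicate 3, and 24, 31 and 37 without VQ28OE9 replicates 1, 2 and 3. The rises in the second class numbered 18, 25, 51, 68 and 83 in the same order. Without VQ28KO12 replicate 1 the rises were 1 in the WRKY list, 0 in the salicylic acid list, 1 in the pattern-triggered immunity list and 2 in the abscisic acid list. Without VQ28KO12 replicate 3 they were 1, 2, 2 and 3, and the brassinosteroid list had 1 fall with each of these libraries left out in turn. Medians of the first 4 lists were 0.45, 0.58, 0.58 and 0.48 without replicate 1, and 0.43, 0.61, 0.57 and 0.41 without replicate 3. With all libraries they were 0.5, 0.63, 0.64 and 0.43. The brassinosteroid median was -0.65 and -0.62, against -0.51 with all libraries. Without WT replicate 3 and VQ28OE9 replicate 3 together, 73 growth genes fell and 5 rose, and 165 stress genes rose and 35 fell.

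**Figure D1:**
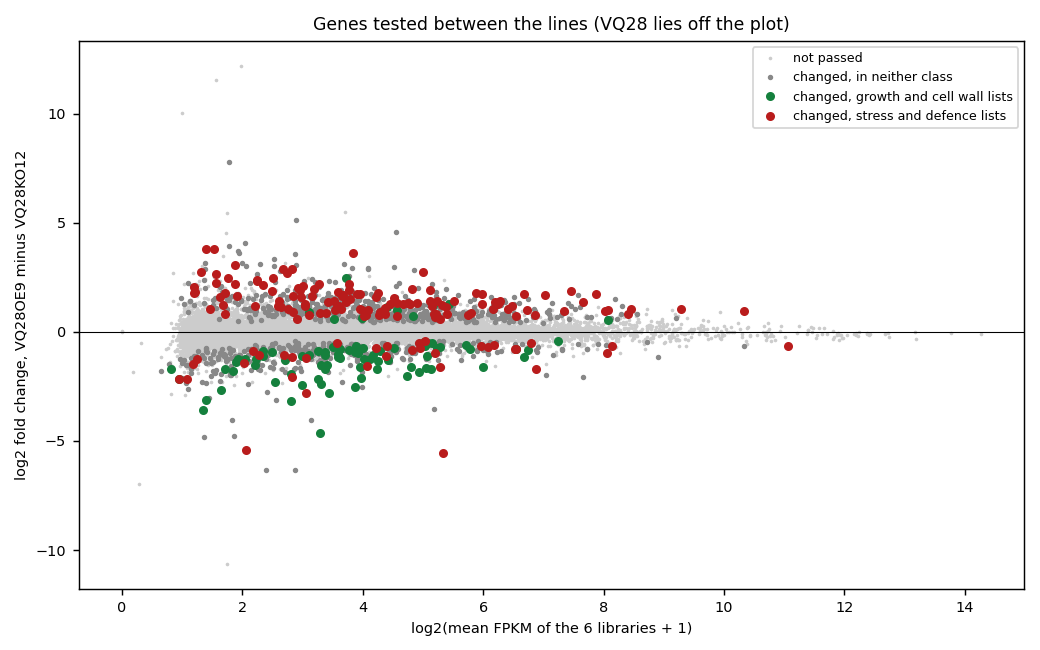
Each point is a tested gene, by its mean level over the 6 libraries, as log2(FPKM + 1), and its fitted log2 fold change in VQ28OE9 minus VQ28KO12; VQ28, at 9.89, is left out. Changed growth and cell wall genes lie mostly below 0 (72 lower, 10 higher). Changed stress and defence genes lie mostly above 0 (123 higher with VQ28 counted, 35 lower). List members were chosen with earlier results of these data known.

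**Figure D2:**
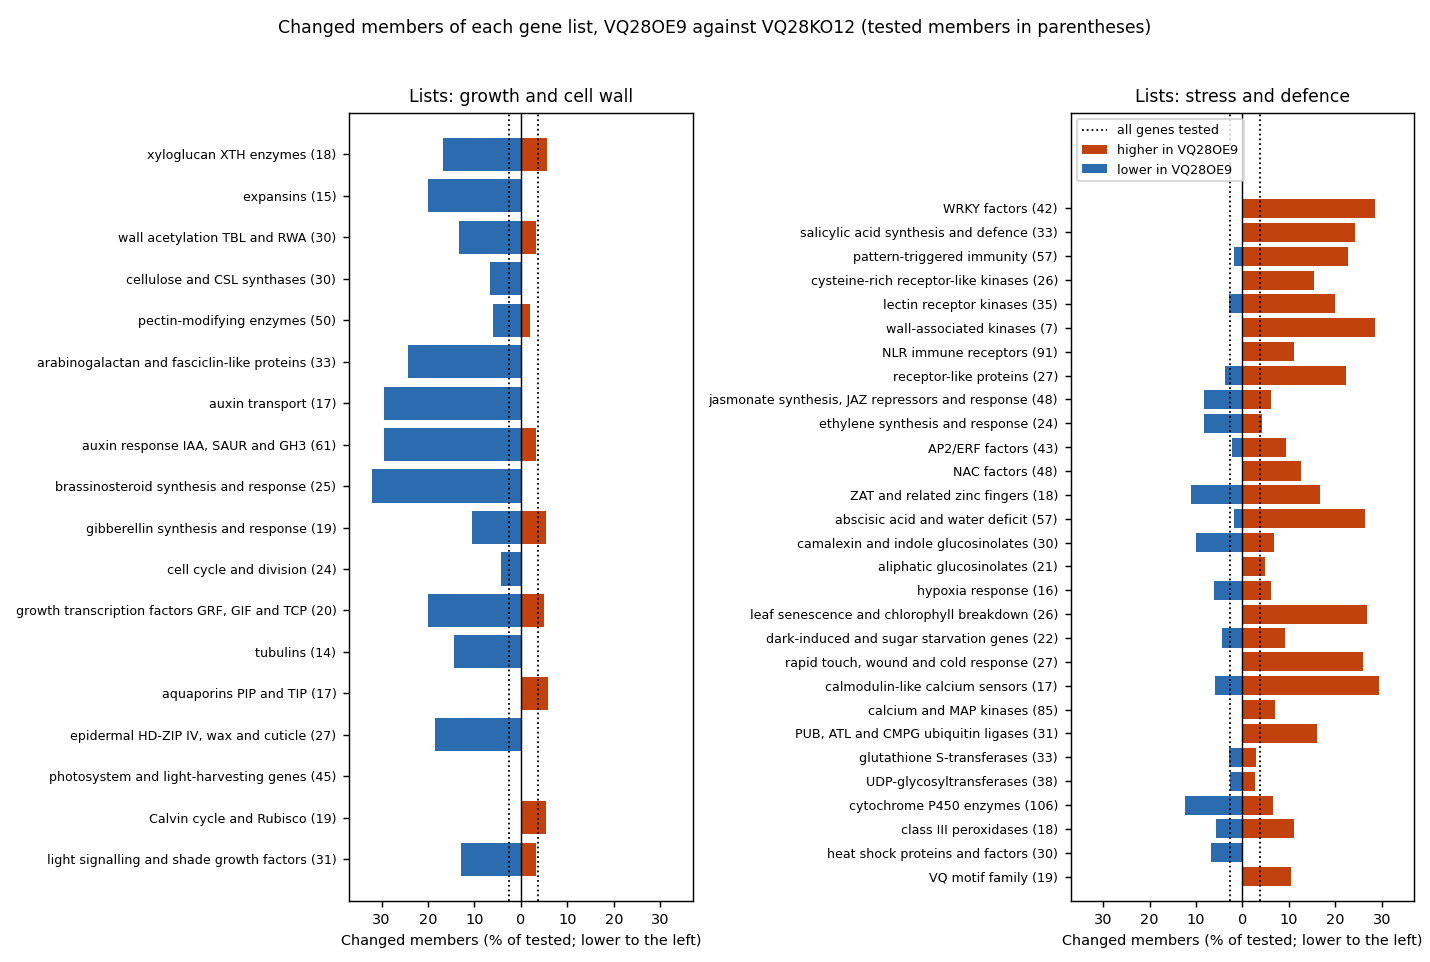
Bars give the share of tested members of each list that rose (right) or fell (left), with the number tested in parentheses and dotted lines at the shares over all genes tested, 3.71% and 2.62%. Falls reach 32.0% in the brassinosteroid list, and rises reach 29.4% among calmodulin-like calcium sensors. Lists were chosen with earlier results of these data known.

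In each cell wall family listed, most members did not pass the test, and those that did were more often lower than higher in VQ28OE9. In the XTH and pectin lists this was 3 falls to 1 rise, with medians of -0.03 and -0.08. Extensins had no list of their own, and the extensin gene EXT4, given below, rose. Of 18 tested XTH genes, which encode enzymes that cut and rejoin xyloglucan, 3 fell and 1 rose, with a median of -0.03. XTH32 fell from 7.82, 8.28 and 7.59 FPKM in VQ28KO12 to 2.58, 3.44 and 3.39 FPKM in VQ28OE9 (-1.3 ± 0.16, adjusted p = 0.00558). WT lay between, at 5.42 ± 0.445 FPKM. XTH25 stood at 24.7, 22.7 and 3.68 FPKM in VQ28KO12 and at 0.416, 1.04 and 0.518 FPKM in VQ28OE9 (-4.64 ± 1.08, adjusted p = 0.0347). The lines did not overlap, which the choice of the largest falls required, although VQ28KO12 replicate 3 was far below its fellows. The call held in 12 of 19 alternatives. XTH31 fell by 1.25 on the log2 scale, and XTH18 rose by 1.3.

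Expansins, which loosen the wall without cutting it, had 3 of 15 members lower, 0 higher and a median of -0.51. EXPA1 fell from 40.4, 34.1 and 59.4 to 24.7, 20 and 17.6 FPKM (-1.09 ± 0.24, adjusted p = 0.0294). EXPA6 (-1.06) and EXLB1 (-1.70) were the others. Each of these calls was lost in some alternative, EXPA1 and EXPA6 in 6 of 19.

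Pectin methylesterases strip methyl groups from pectin and so change how stiff the wall is. Of 50 tested genes of pectin modification, 3 fell (6.0%) and 1 rose (2.0%), with a median of -0.08. Over all genes tested 2.62% fell and 3.71% rose. PME3 fell from 39.4, 47.7 and 51 to 11.5, 16.4 and 10.6 FPKM (-1.83 ± 0.24, adjusted p = 0.00659), and WT stood at 49.4 ± 14.9 FPKM. ATPMEPCRB rose from 4.93, 3.66 and 2.91 to 22.9, 20.9 and 17.7 FPKM (2.45 ± 0.27, adjusted p = 0.00387), with WT at 4.56 ± 1.63 FPKM. Both kept their calls in every alternative. PME1 (-0.79) and PME44 (-0.83) fell less.

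Among arabinogalactan and fasciclin-like proteins, which are heavily glycosylated proteins of the cell surface and wall, 8 of 33 fell and 0 rose, with a median of -0.73. Of the 13 tested fasciclin-like genes 6 fell, and the fitted values of all 13 lay between -1.71 and -0.45. FLA2 fell from 107, 92.1 and 86.8 to 30.5, 33.8 and 27.3 FPKM (-1.62 ± 0.20, adjusted p = 0.00533). SOS5, also called FLA4, fell from 16.1, 12.4 and 17.1 to 6.34, 7.9 and 6.09 FPKM (-1.14 ± 0.16, adjusted p = 0.00837). Neither gene's lines overlapped, which was so for nearly all falls and adds no support. Both calls held in every alternative. AGP31 (-1.53) and FLA18 (-0.71) were next by adjusted p.

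Genes that acetylate wall polymers, the TBL and RWA families, had 4 of 30 members lower and 1 higher, with a median of -0.27. TBL26 fell from 167, 104 and 152 to 62.8, 60.4 and 63.2 FPKM (-1.15 ± 0.18, adjusted p = 0.0124), with every VQ28OE9 library below every VQ28KO12 library, as in nearly all falls. TBL25 (-1.02) and RWA4 (-0.92) fell with it, while TBL38 rose (1.14), a gene that overlaps 2 neighbours in the deposited annotation. The fifth changed member, TBL27 (-0.48), was named after its value was seen. Cellulose synthases and their relatives had 2 of 30 members lower (6.7%, against 2.62% of all genes tested), ATCSLA15 and CSLC04, and a median of -0.25. ATCSLA15, of a family that makes mannan, fell from 14.6, 12.1 and 5.88 to 0.358, 1.29 and 1.88 FPKM (-3.15 ± 0.56, adjusted p = 0.0161). CSLC04, of the family that makes the xyloglucan backbone, fell by 1.07 on the log2 scale. Of 14 tubulin genes, whose products guide cellulose deposition, TUA5 (-0.76, overlapping AT5G19790) and TUB3 (-0.59) fell, and TUB3 kept its call in 9 of 19 alternatives.

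In auxin transport 5 of 17 fell and 0 rose, with a median of -0.67. LAX2, an auxin influx carrier, fell from 4.3, 1.84 and 4.87 to 0.548, 0.772 and 0.373 FPKM (-2.68 ± 0.41, adjusted p = 0.0119). PIN3, an efflux carrier, fell from 31.1, 18.1 and 32.9 to 8.25, 10.2 and 6.26 FPKM (-1.72 ± 0.27, adjusted p = 0.0124). In both genes VQ28KO12 replicate 2 was the lowest of its line and still above all VQ28OE9 libraries, as in nearly all falls. ABCB1 (-0.68) and AT1G76520 (-0.84) also fell, as did PIN7 (-1.92), which was named after its value was seen.

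Of 61 tested genes of early auxin response 18 fell and 2 rose, with a median of -0.49. SAUR genes, small genes induced within minutes by auxin that promote cell expansion, made up 10 of these falls among 35 tested, with 1 rise and a median of -1.06. Of the early response list 0 members fell without VQ28KO12 replicate 1 and 0 without VQ28KO12 replicate 3, and 4, 6 and 5 fell without VQ28OE9 replicates 1, 2 and 3. The list median was -0.51 and -0.41 without VQ28KO12 replicates 1 and 3, and -0.43, -0.58 and -0.56 without VQ28OE9 replicates 1, 2 and 3. SAUR22 fell from 14.9, 7.75 and 19.8 to 3.9, 2.35 and 2.97 FPKM (-2.17 ± 0.36, adjusted p = 0.0133). SAUR63 fell from 23.7, 15.6 and 32.2 to 4, 6.87 and 5.35 FPKM (-2.12 ± 0.36, adjusted p = 0.0144), and AT4G38860 from 17.1, 11.4 and 23.5 to 2.15, 2.52 and 2.76 FPKM (-2.78 ± 0.51, adjusted p = 0.0177). The VQ28KO12 replicates kept the same order in all 3 genes, replicate 3 highest and replicate 2 lowest, and WT stood at 5.24 ± 0.832, 12.9 ± 5.41 and 8.23 ± 6.49 FPKM. SAUR20 fell by 1.63 on the log2 scale. SAUR20, SAUR22, SAUR23 and SAUR24 are close copies, so how reads were divided among them is uncertain. Of 22 Aux/IAA repressor genes 6 fell and 1 rose, with SHY2, also called IAA3, going from 27.6, 23.8 and 27.3 to 11.6, 10.4 and 8.42 FPKM (-1.34 ± 0.24, adjusted p = 0.0164).

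Brassinosteroid synthesis and response had 8 of 25 members lower, 0 higher and a median of -0.51. PRE1, a small helix-loop-helix factor that promotes cell elongation, fell from 24.2, 22.9 and 22.9 to 3.62, 4.75 and 3.4 FPKM (-2.54 ± 0.23, adjusted p = 0.00257). WT lay between the lines, at 13 ± 3.56 FPKM. BRI1, the brassinosteroid receptor, fell from 25.1, 19.2 and 25 to 10.1, 12.3 and 6.72 FPKM (-1.23 ± 0.21, adjusted p = 0.0144). Its inhibitor BKI1 (-1.37) and the sterol synthesis gene STE1 (-0.64) fell as well.

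In the gibberellin list 2 of 19 fell and 1 rose, with a median of -0.11. GAI, a DELLA protein that restrains growth, fell from 28.7, 27.6 and 31 to 11.3, 12.9 and 11.2 FPKM (-1.28 ± 0.14, adjusted p = 0.00434), in every alternative. GASA6, a gibberellin-regulated peptide gene, stood at 43.4, 15.4 and 64.7 FPKM in VQ28KO12 and at 12.2, 9.77 and 7.86 FPKM in VQ28OE9 (-2.03 ± 0.45, adjusted p = 0.0294), while WT stood at 7.8 ± 2.4 FPKM. The gibberellin receptor gene GID1B rose (0.99) but passed in 8 of 19 alternatives.

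Growth regulators of the GRF, GIF and TCP families had 4 of 20 members lower and 1 higher, with a median of -0.39. Against WT the list median was -0.08 in VQ28OE9 and 0.17 in VQ28KO12. GRF3, which promotes leaf cell number, fell from 2.53, 2.71 and 3.64 to 0.458, 0.468 and 0.0588 FPKM (-3.14 ± 0.61, adjusted p = 0.0205); it overlaps AT2G36390. TCP15 (-1.24), AT5G23280 (-1.20) and AT1G35560 (-0.63), all TCP factors, also fell, and TCP20 (0.93), named after its value was seen, rose. Of 24 cell cycle genes, CYCD5;1 fell from 5.33, 5.14 and 5.5 to 2.55, 3.05 and 2.87 FPKM (-0.89 ± 0.15, adjusted p = 0.0144) and no other member passed. Light and shade signalling had 4 of 31 members lower and 1 higher, with a median of -0.31. Its median against WT was -0.07 in VQ28OE9 and 0.08 in VQ28KO12. PAR1, an inhibitor of shade growth, fell from 3.08, 2.28 and 3.19 to 0.313, 0.199 and 0.171 FPKM (-3.59 ± 0.59, adjusted p = 0.0133). PIL1 (-1.26) and BBX21 (-0.73) fell and PIF3 rose (0.65).

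Epidermal and cuticle genes had 5 of 27 members lower, 0 higher and a median of -0.59. ATML1, a homeodomain factor that specifies epidermal identity, fell from 15.3, 14.6 and 13.3 to 3.29, 4.94 and 4.9 FPKM (-1.69 ± 0.17, adjusted p = 0.00387), with WT between at 9.96 ± 1.44 FPKM. HDG1 (-1.1), of the same family, fell with it. So did the wax elongase gene KCS9 (-0.89) and the cuticle gene BDG1 (-0.97). The other tested epidermis markers did not pass, and the summed marker levels of the lines, given above, overlapped; their part in these falls was not tested.

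None of 45 photosystem and light-harvesting genes passed, with a median of -0.11. The smallest p was that of PSAH2, at 2113, 1702 and 2400 FPKM in VQ28KO12 and 1615, 1744 and 1431 FPKM in VQ28OE9 (-0.35 ± 0.16, adjusted p = 0.227). In the Calvin cycle list CP12-3 alone of 19 passed, higher by 1.23. Among 17 aquaporins TIP2;2 alone passed, rising from 233, 190 and 233 to 314, 305 and 328 FPKM (0.55 ± 0.12, adjusted p = 0.0264).

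**Figure D3:**
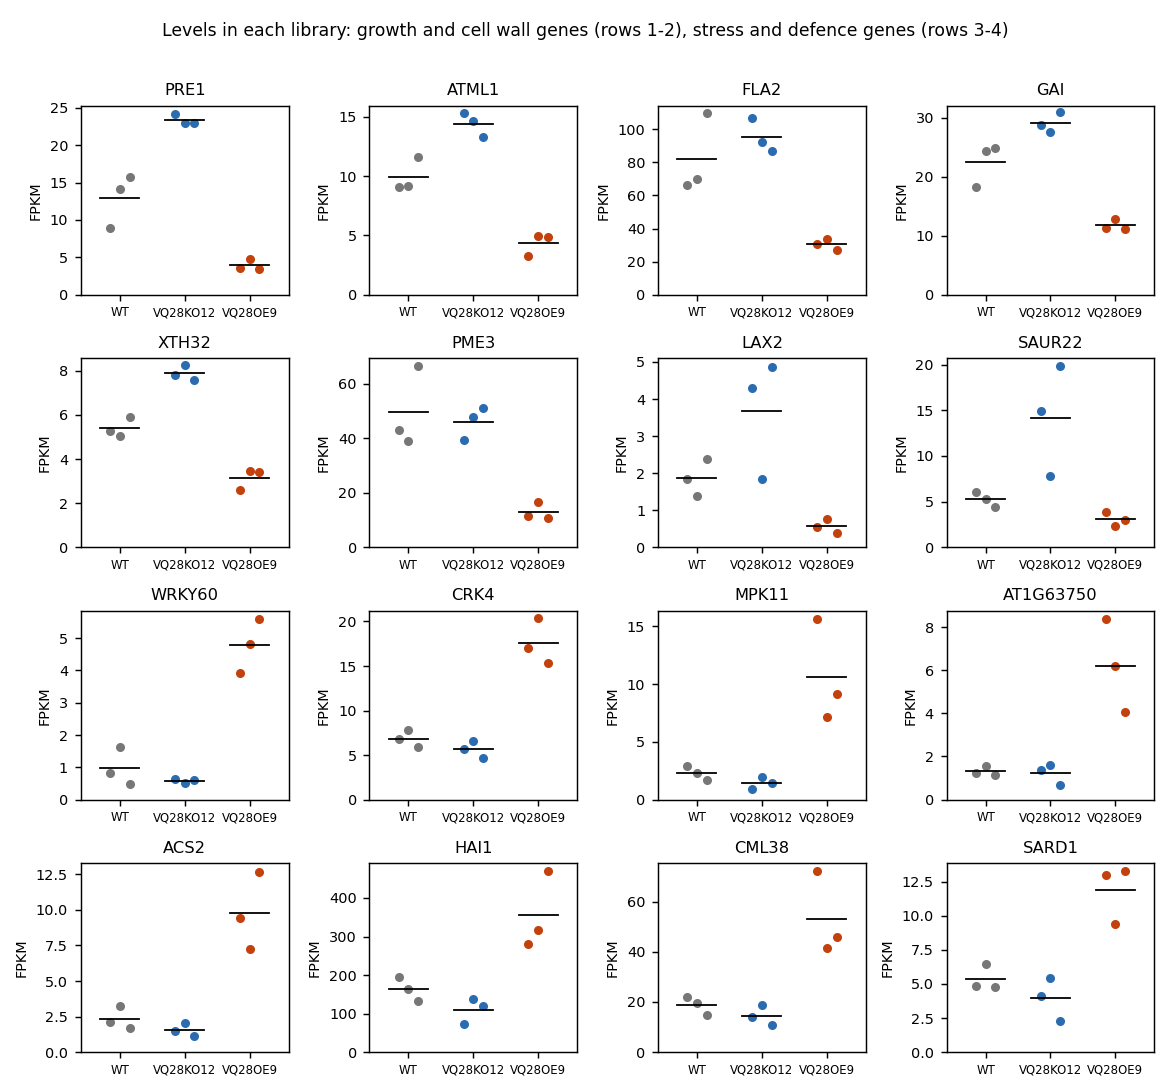
Points give the FPKM of each library and bars the mean of each genotype, on axes that start at 0, for 8 growth and cell wall genes and 8 stress and defence genes. VQ28OE9 lies below VQ28KO12 without overlap in the first 8 and above it in the other 8. All were chosen among changed genes.

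The W-box and the other motifs were sought on either strand in the 250 bases before the annotated start of 15593 protein-coding genes tested, read from the RefSeq genome TAIR10.1 by RefSeq's own annotation. A W-box, TTGACC or TTGACT, stood in 28.1% of all these promoters, in 45.3% of those of 589 genes that rose and in 21.8% of those of 412 that fell. Among the 123 rises in the stress and defence lists, VQ28 included, it stood in 48.8%. The 72 falls in the growth and cell wall lists held it in 25.0%. The G-box CACGTG stood in 7.9% of all, 13.8% of rises and 6.1% of falls. The rapid stress element CGCGTT stood in 2.9%, 5.6% and 1.7%, and the auxin element TGTCTC in 10.2%, 10.5% and 15.0%. The TCP site TGGGCC was less frequent in both, at 8.8% of rises and 10.2% of falls against 17.6% of all. These shares are descriptions of letters, with no test.

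The promoters of the 2 named rises and 2 named falls with the smallest adjusted p are shown to place these motifs, in lower case with motif matches in capitals, 5′ to 3′ and all on the plus strand. They lie at chr5:15957118-15957367 for PRE1, chr4:11554789-11555038 for ATML1, chr1:3066424-3066673 for AT1G09500 and chr5:17176043-17176292 for AT5G42830, in TAIR10.1.
PRE1: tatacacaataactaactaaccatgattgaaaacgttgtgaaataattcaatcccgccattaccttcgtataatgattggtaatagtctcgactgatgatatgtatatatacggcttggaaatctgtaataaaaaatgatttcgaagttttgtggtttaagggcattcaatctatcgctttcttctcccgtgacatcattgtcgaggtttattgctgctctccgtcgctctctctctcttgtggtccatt
ATML1: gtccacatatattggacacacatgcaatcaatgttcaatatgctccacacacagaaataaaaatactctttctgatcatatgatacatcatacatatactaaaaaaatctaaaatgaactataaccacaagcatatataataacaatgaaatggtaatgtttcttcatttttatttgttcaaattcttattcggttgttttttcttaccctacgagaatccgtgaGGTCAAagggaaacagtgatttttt
AT1G09500: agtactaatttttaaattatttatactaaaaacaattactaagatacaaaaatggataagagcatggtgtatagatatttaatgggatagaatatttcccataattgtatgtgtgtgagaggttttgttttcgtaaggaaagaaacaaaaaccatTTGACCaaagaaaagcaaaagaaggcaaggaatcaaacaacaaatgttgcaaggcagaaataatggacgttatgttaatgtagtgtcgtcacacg
AT5G42830: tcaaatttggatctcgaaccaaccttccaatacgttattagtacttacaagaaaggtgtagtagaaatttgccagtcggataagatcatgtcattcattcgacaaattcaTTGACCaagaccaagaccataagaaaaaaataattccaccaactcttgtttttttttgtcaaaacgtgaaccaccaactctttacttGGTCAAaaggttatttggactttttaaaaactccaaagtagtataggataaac
None of the motifs was in the window of PRE1. ATML1, which fell, held a W-box beginning 25 bases before the start. AT1G09500 held 1, beginning 95 bases before it, and AT5G42830 held 2, beginning 140 and 53 bases before it.

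AT1G09500 and AT5G42830 were among the largest rises, which are the 12 greatest differences in mean log2(FPKM + 1) among changed genes. AT1G09500, annotated as an NAD(P)-binding protein, rose from 1.77, 2.05 and 1.74 to 28.1, 28.7 and 73 FPKM (4.57 ± 0.42, adjusted p = 0.00257). AT5G42830, annotated as an acyltransferase, rose from 3.26, 3.42 and 2.63 to 21.8, 23.5 and 24.5 FPKM (2.94 ± 0.27, adjusted p = 0.00257). CYP81D8, a cytochrome P450 gene, rose from 6.59, 10.1 and 7.64 to 69.1, 50.9 and 41.3 FPKM (2.75 ± 0.38, adjusted p = 0.00764). WT stood near VQ28KO12 in all 3 genes, at 3.11 ± 0.92, 4.58 ± 2.03 and 7.12 ± 3.63 FPKM.

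The largest rises also held AT1G69480, annotated to the EXS family, with a log2 fold change of 3.10 ± 0.50, and AT5G52760, annotated as a copper transport protein, with 3.05 ± 0.51. The genes without a description in the deposited table, AT1G36622 (2.96), AT4G33467 (2.82) and AT2G25625 (2.88), were among them. LEA7, of a family that protects cells in drying, stood at 0.326, 0.556 and 0.214 FPKM in VQ28KO12 and at 2.47, 4.44 and 30.4 FPKM in VQ28OE9 (5.13 ± 0.97, adjusted p = 0.0189), with replicate 3 far above the others; it overlaps AT1G52695. EXT4, a wall extensin gene, stood at 3.61, 5.67 and 2.06 FPKM and at 10.7, 48 and 26.1 FPKM (2.92 ± 0.74, adjusted p = 0.047), with WT at 12.7 ± 12 FPKM, and passed in 10 of 19 alternatives. The lines did not overlap in either gene, which the choice of the largest rises required, but their replicates were uneven.

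Among the 12 largest falls, PRE1, XTH25, AT4G38860 and ATCSLA15 are growth and wall genes given above. AT3G16670, annotated to the Ole e 1 and extensin family, fell from 61.4, 74.4 and 59.9 to 2.36, 11.2 and 2.97 FPKM (-3.55 ± 0.50, adjusted p = 0.00837), with WT at 80.6 ± 15 FPKM. AT5G02540 (-2.53), an NAD(P)-binding protein gene, and ESE3 (-3.12), an ethylene-responsive factor gene, fell too. QQS, linked to starch content, stood at 14.1, 12 and 11.5 FPKM in VQ28KO12, and had 20 units in all 3 VQ28OE9 libraries against 1761. That ratio was 82.3, with a 95% counting interval of 35 to 255. AT3G42658.1, a non-coding retrotransposon, stood at 9.7, 6.81 and 8.73 FPKM and had 21 units against 1843, a ratio of 82 (36.7 to 267). In both genes WT was far below VQ28KO12, with 0.771 ± 0.473 FPKM for QQS and 0 units in every WT library for AT3G42658.1. Both met the FPKM limit for testing only through their level in VQ28KO12. DIN11, a dark-induced oxygenase gene, fell by 2.80 on the log2 scale. AT2G27228, an upstream reading frame that overlaps AT2G27230 and cannot be told apart from it in these counts, fell by 4.03.

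**Figure D4:**
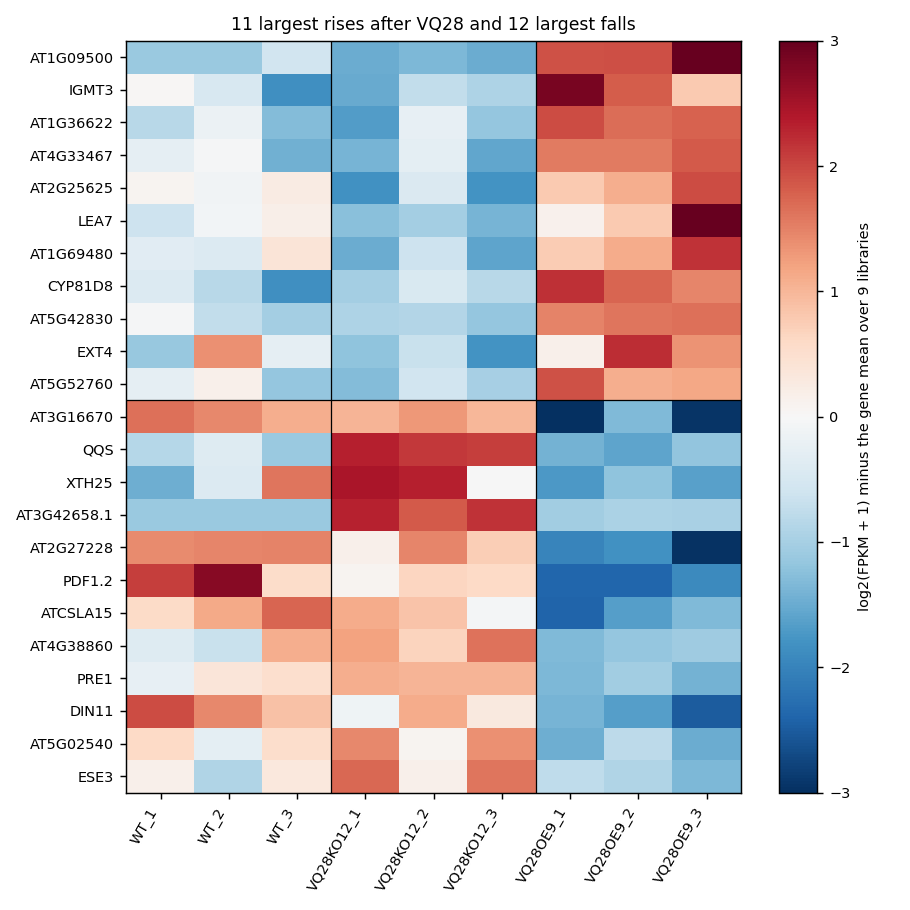
Colour gives log2(FPKM + 1) minus the gene's mean over the 9 libraries, for the 11 largest rises after VQ28 (top) and the 12 largest falls (bottom), with colours ending at 3 either way. Genes were chosen so that VQ28OE9 and VQ28KO12 do not overlap in any row. WT overlaps VQ28OE9 for LEA7, EXT4, XTH25 and ESE3, and lies below VQ28KO12 for QQS and AT3G42658.1.

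The WRKY family, partners of VQ proteins, had 12 of 42 tested members higher in VQ28OE9 and 0 lower, with a median of 0.50. WRKY60 rose from 0.639, 0.513 and 0.602 to 3.93, 4.83 and 5.59 FPKM (3.05 ± 0.41, adjusted p = 0.00676), with WT at 0.98 ± 0.592 FPKM. It met the FPKM limit for testing only through its level in VQ28OE9. WRKY28 rose from 6.09, 6.26 and 5.19 to 16.9, 12.5 and 16.4 FPKM (1.42 ± 0.23, adjusted p = 0.0131). Neither overlapped between the lines, which was so for all rises and adds no support. WRKY8 (2.11) and WRKY6 (1.5), a senescence regulator, followed. In the VQ family itself 2 of 19 rose, beside 3.71% of all genes tested. VQ28 is 1 of these and rose by design, as the overexpressed gene. The other, AT4G37710, went from 1.37, 4.15 and 2.57 to 9.37, 10.1 and 12 FPKM (1.99 ± 0.42, adjusted p = 0.0252). That 1 rise is not read as a result about the family.

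Salicylic acid synthesis and signalling had 8 of 33 members higher, 0 lower and a median of 0.63. ICS1, listed as EDS16 and the main salicylic acid synthesis enzyme, rose from 4.13, 4.69 and 4.22 to 8.17, 7.25 and 8.67 FPKM (0.92 ± 0.14, adjusted p = 0.01), and WT lay between at 6.35 ± 0.431 FPKM. SARD1, a factor that switches it on, rose from 4.12, 5.42 and 2.29 to 13, 9.41 and 13.3 FPKM (1.63 ± 0.29, adjusted p = 0.0159). PAD4, a lipase-like immune regulator, rose by 1.16. AT4G10500, also called DLO1 and an enzyme that breaks salicylic acid down, rose from 1.27, 1.77 and 1.45 to 3.39, 5.99 and 10.4 FPKM (2.16 ± 0.37, adjusted p = 0.0144).

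Of 57 genes of pattern-triggered immunity, 13 rose and 1 fell, with a median of 0.64. PROPEP3, a precursor of a danger peptide, rose from 0.48, 0.561 and 1.15 to 4.34, 4.1 and 3.8 FPKM (2.45 ± 0.43, adjusted p = 0.0161). MPK11, a kinase activated by bacterial flagellin, rose from 0.931, 1.95 and 1.48 to 15.6, 7.18 and 9.14 FPKM (2.90 ± 0.37, adjusted p = 0.00633). WRKY33 (1.75), which drives camalexin synthesis, and MLO6 (1.35) rose too; WRKY33 overlaps AT2G38480. Cysteine-rich receptor-like kinases had 4 of 26 higher and a median of 0.61. CRK4 rose from 5.73, 6.58 and 4.68 to 17, 20.4 and 15.3 FPKM (1.66 ± 0.16, adjusted p = 0.00369), CRK23 and ARCK1 by 2.74 and 1.98, all in every alternative run, and CRK6 by 1.78.

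Lectin receptor kinases had 7 of 35 higher and 1 lower, with a median of 0.48. LECRKA4.1, which overlaps AT5G01542, rose by 1.83, AT3G53810 by 1.53 and HLECRK by 1.03, and AT3G53380 fell by 1.26. Wall-associated kinases, which bind pectin, had 2 of 7 higher, WAKL2 (2.21) and WAKL6 (1.19), and a median of 1.08. Their median against WT was 0.35 in VQ28OE9 and -0.37 in VQ28KO12. Receptor-like proteins had 6 of 27 higher, among them RLP52 (1.76), RLP21 (1.77) and RLP31 (1.25), and 1 lower, with a median of 0.37. The lower one, RLP51, went from 1.93, 1.53 and 2.05 to 0.271, 0.511 and 0.407 FPKM (-2.18 ± 0.30, adjusted p = 0.00764).

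Intracellular NLR receptors, which detect pathogen effectors, had 10 of 91 higher, 0 lower and a median of 0.38. Of the 60 with a TIR domain in their description 9 rose. AT1G63750 rose from 1.39, 1.59 and 0.697 to 8.37, 6.22 and 4.05 FPKM (2.37 ± 0.33, adjusted p = 0.00817), in every alternative run. AT4G14370 (2.34) and AT5G41740 (1.38) were others. RPS2, which guards a target of bacterial effectors, rose from 3.5, 2.67 and 2.75 to 8.64, 11.6 and 7.56 FPKM (1.66 ± 0.27, adjusted p = 0.0127); it overlaps 2 neighbours. NLR genes have near-identical relatives among which reads can be divided.

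Calmodulin-like sensors had 5 of 17 higher and 1 lower, with a median of 0.45. CML38 rose from 14.1, 18.8 and 10.8 to 72.2, 41.5 and 45.7 FPKM (1.90 ± 0.27, adjusted p = 0.00837), CML37 by 1.75, CML23 by 1.83 and CAM9 by 1.04. Among 85 calcium-dependent and MAP kinase genes 6 rose (7.1%, against 3.71% of all genes tested) and 0 fell, with a median of 0.26. Those that rose include MPK5 (0.87), MAPKKK18 (1.4) and CIPK12 (0.61). Early touch and wound response genes had 7 of 27 higher, 0 lower and a median of 0.60. NHL3, a pathogen-induced gene that overlaps AT5G06310, rose from 63.8, 92.8 and 72.9 to 357, 227 and 240 FPKM (1.87 ± 0.26, adjusted p = 0.00837), and the zinc finger gene SZF1 from 27.7, 31.3 and 21.4 to 128, 73.2 and 66.4 FPKM (1.77 ± 0.28, adjusted p = 0.0124). In NHL3, SZF1, CML38 and MPK11, VQ28OE9 replicate 1 was the highest library.

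Genes of abscisic acid and water deficit had 15 of 57 members higher and 1 lower, with a median of 0.43. All 7 tested PP2C phosphatases, which switch off abscisic acid signalling and are themselves induced by it, rose, by 0.68 to 1.72. HAI1 rose from 72.8, 137 and 120 to 281, 316 and 470 FPKM (1.72 ± 0.28, adjusted p = 0.0128), and HAI2 from 13.9, 12.7 and 11.5 to 20.8, 29.1 and 30 FPKM (1.1 ± 0.15, adjusted p = 0.00764). ABI1 went from 218, 265 and 252 to 381, 422 and 482 FPKM (0.83 ± 0.15, adjusted p = 0.0158), and HAB1 rose by 1.15. Of the 8 abscisic acid receptor genes 1 rose, and their median was -0.33.

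Leaf senescence genes had 7 of 26 higher, 0 lower and a median of 0.44. ORE1, listed as NAC6 and a promoter of leaf death with age, rose from 2.67, 7.41 and 3.81 to 15, 16.9 and 30.3 FPKM (2.2 ± 0.41, adjusted p = 0.0184). NAP, another senescence factor, rose from 15, 18.2 and 13.7 to 41.8, 39 and 31.2 FPKM (1.28 ± 0.25, adjusted p = 0.0205). HAI1 and WRKY6 belong to this list too. NAC factors as a family had 6 of 48 higher and 0 lower, with a median of 0.21, and NAC036 (1.98) and TIP (0.81) were the other named rises.

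AP2/ERF factors had 4 of 43 higher and 1 lower, with a median of 0.45. RAP2.10 rose by 1.35, AT1G22190 by 1.34 and ERF53 by 1.60, and ERF9 fell by 1.15. Ubiquitin ligases of the PUB and ATL families had 5 of 31 higher, 0 lower and a median of 0.38. PUB17, a regulator of immune cell death, rose from 48.9, 48.2 and 43 to 106, 93.9 and 86.6 FPKM (1.06 ± 0.14, adjusted p = 0.00738), and PUB19 (1.73), PUB24 (1.42) and PUB18 (1.27) rose with it. PUB39 (1.01), the fifth, was named after its value was seen. Of 18 ZAT and related zinc finger factors 3 rose, among them OZF1 (1.00), and ZFP8 (-2.09) and ZFP7 (-0.74) fell, with a median of 0.61.

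In the jasmonate list 3 of 48 rose and 4 fell, with a median of 0.10. The synthesis genes LOX3 and ACX1 rose by 0.94 and 1.04, LOX3 from 935, 988 and 776 to 1702, 1546 and 1811 FPKM (adjusted p = 0.0219). The response factor MYC4 fell by 1.08. The defensin PDF1.2 stood at 4.53, 7.23 and 6.93 FPKM in VQ28KO12, against 0 units in VQ28OE9 replicates 1 and 2 and 0.392 FPKM in replicate 3, and at 20.4 ± 13.4 FPKM in WT. Its units were 14 against 661 (adjusted p = 0.0161), a ratio of 44.1 (95% counting interval 14.8 to 143). In the ethylene list 1 of 24 rose and 2 fell, with a median of -0.12. ACS2, which makes the ethylene precursor, rose from 1.49, 2.02 and 1.13 to 9.45, 7.28 and 12.7 FPKM (2.70 ± 0.32, adjusted p = 0.00489), in every alternative run, while the ethylene receptor gene ERS1 fell (-0.52). ERS1 passed in 6 of 19 alternatives.

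Camalexin and indole glucosinolate genes had 2 of 30 higher and 3 lower, with a median of 0.00. IGMT3 rose from 1.15, 2.69 and 2.22 to 43.3, 20.8 and 9.7 FPKM (3.63 ± 0.73, adjusted p = 0.0224). CYP71A13, a camalexin synthesis gene, fell from 13.7, 28.5 and 29.2 to 10.1, 5.15 and 8.25 FPKM (-1.58 ± 0.36, adjusted p = 0.0322), while its close copy CYP71A12, named after its value was seen, rose by 3.82. Reads shared between these copies cannot be told apart here. ASA1 (-0.52), of tryptophan synthesis, and the transporter gene ABCG34 (-1.09) fell. In the aliphatic glucosinolate list IMS2 (1.92) alone of 21 passed, and the median was -0.08.

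Heat shock proteins and factors had 2 of 30 lower, 0 higher and a median of -0.42. HSP70 fell from 282, 454 and 317 to 139, 177 and 216 FPKM (-0.96 ± 0.21, adjusted p = 0.0288), and HSP101, which overlaps AT1G74300, fell by 0.75. In WT they stood at 220 ± 16.7 and 23.7 ± 1.65 FPKM, nearer to VQ28OE9. Cytochrome P450 genes had 13 of 106 lower and 7 higher, with a median of -0.02. Besides CYP81D8, CYP71A21 (1.06, overlapping AT3G48330) and CYP71B11 (1.26) rose, and CYP72A8 fell from 45.5, 45.4 and 51.6 to 22.3, 23.6 and 25.6 FPKM (-0.97 ± 0.15, adjusted p = 0.0124). Those that fell include BAS1 and CPD of brassinosteroid metabolism, the P450 FAH1 of lignin synthesis, CYP86A2 of cutin synthesis and CYP707A4 of abscisic acid breakdown, with log2 fold changes of -2.17, -0.79, -1.59, -0.67 and -1.07, named after their values were seen.

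Glutathione transferases had 1 of 33 higher, GSTU11 (1.64), and 1 lower, GSTF2 (-1.71), with a median of 0.01 that was -0.04 with upper-quartile scaling. Glycosyltransferases had UGT87A2 higher (1.39) and GT72B1 lower among 38. GT72B1 stood at 114, 0.999 and 117 FPKM in VQ28KO12, at 1.12, 2.15 and 1.54 FPKM in VQ28OE9 and at 114 ± 19.1 FPKM in WT (-5.57 ± 1.23, adjusted p = 0.0296). Replicate 2 of VQ28KO12 lay under all VQ28OE9 libraries, so the lines overlapped, and the call held in 9 of 19 alternatives. Of 18 class III peroxidases PER4 (1.87) and AT5G64120 (0.98) rose and AT3G28200 (-0.83) fell. TPS11, of trehalose metabolism, rose from 36.9, 40 and 32.9 to 95.8, 94 and 73.9 FPKM (1.29 ± 0.16, adjusted p = 0.00533), and MCCA, which overlaps AT1G03100, rose by 0.89, among 22 starvation genes. Of 16 hypoxia genes CML38 rose and PDC2 fell (-0.65). Of 12 flavonoid and anthocyanin genes MYB113, an anthocyanin regulator, fell (-2.16 ± 0.35, adjusted p = 0.0129). None of 17 circadian clock genes passed, the nearest being TOC1 (0.95 ± 0.25, adjusted p = 0.0517).

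Of the 159 changed genes chosen by the naming rule, 31 passed in every alternative run. Without VQ28KO12 replicate 1, 40 of the 159 still passed, and without VQ28KO12 replicate 3, 46. Without VQ28KO12 replicate 2 it was 134, and 87, 107 and 117 passed without VQ28OE9 replicates 1, 2 and 3. None changed sign in any alternative, but genes chosen because they passed could hardly do so.

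**Figure D5:**
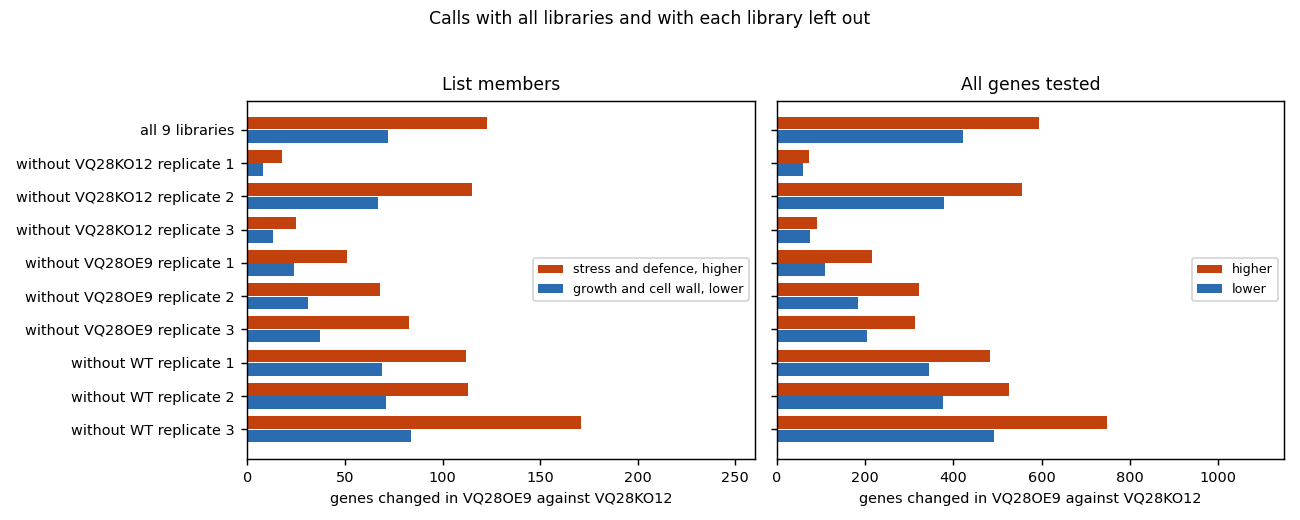
Bars give the number of genes changed in VQ28OE9 against VQ28KO12 with all 9 libraries and with each library left out, for list members (left) and for all genes tested (right). The counts are smallest without VQ28KO12 replicate 1 (72 higher and 59 lower of all genes) and replicate 3 (92 and 75).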

How the data were processed

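The 9 libraries were grouped by the genotype in the sample titles. Libraries were made from poly(A) RNA, marked for strand and read from both ends, per the labels' protocols. In the table the authors deposited, each gene has an FPKM and a whole-number count in every library. For the aligner, the counter, the build and the use of strand, the answer is the same: not given in the sources used here. As deposited, these are handled as estimated counts and called units, since multiples of 4 make up 48.7% to 57.0% of the values between 1 and 16, where 25% would fall by chance. A gene without counts is listed at 0.0001 FPKM, written here as 0.

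The design had assumed raw counts; the units were tested as deposited with edgeR 4.0.16 in R 4.3.3 (quasi-likelihood, TMM, 9 libraries, 1 mean per genotype, two-sided). A call needed an adjusted p (Benjamini-Hochberg) under 0.05, and a gene rose or fell only if it changed. Standard errors were derived from each fold change and its F statistic. Ratios of low genes use 4 units per fragment, with exact binomial 95% intervals that cover counting error only and are given where a line's mean was under 12 units. On simulated data for this comparison with 16050 genes, 49% of 2-fold and 92% of 4-fold changes were recovered, and 6.62% of calls were false. This was a single run with 100 genes changed at each size, none of them with very few fragments. Its libraries were independent, with the spread of the fit, and held no structure shared between libraries. The share of false calls in the real comparison was therefore not measured.

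The genes and lists were chosen with earlier results of these data known. List members were matched by name or description to the TAIR10.1 gene table, which named 28932 of the 33610 genes. Members matched to the wrong gene, and a ribosomal protein list that reached few of its family, were dropped by identity before fold changes were used. The genes named are VQ28, the 12 rises and 12 falls with the greatest difference in log2(FPKM + 1), if changed, separate between the lines and at 5 FPKM or more in the higher line, then the 4 changed members per list with the smallest adjusted p, or the member with the smallest p where none changed. Promoters were read from the TAIR10.1 genome at RefSeq's own gene starts. Alternatives were the 6 libraries alone, each library left out, WT replicate 3 and VQ28OE9 replicate 3 left out together, the replicate number as a block, DESeq2 1.42.0, limma 3.58.1 on log2(FPKM + 1) and with 0.1, units divided by 4, no filter, a filter at 5 FPKM and upper-quartile scaling. For 1 gene that the naming rule chose, the result is not reported here.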

Additional observations from a re-analysis of the deposited data

How the results depend on the processing

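The number of genes changed was 1016, with 595 higher and 421 lower. DESeq2 called 1957, with 1107 higher and 850 lower, and 1015 of the 1016 among them. It also gave 119 lower and 23 higher growth and cell wall genes, and 206 higher and 64 lower stress and defence genes; the cause was not tested. Leaving out 1 library at a time gave 131 to 1241 genes changed, 72 to 748 higher and 59 to 493 lower. The same settings gave 1 to 12 growth genes higher and 8 to 84 lower, and 18 to 171 stress genes higher and 6 to 38 lower, with fewer libraries fitted. Without WT replicate 3 and VQ28OE9 replicate 3 together, 5 growth genes were higher against 10. For VQ28 the fold change with a library left out was 9.30 to 10.47 on the log2 scale, and the call was lost without VQ28KO12 replicate 1 (10.17, adjusted p = 0.061). With the 6 libraries alone 963 genes changed, with units divided by 4 1063, with limma 1008 and 975, with no filter 991, at 5 FPKM 804, and with upper-quartile scaling 1041, of which 526 were higher and 515 lower. Same-numbered replicates did not pair between VQ28OE9 and VQ28KO12: the deviations of the lines' replicates 1, 2 and 3 correlated at -0.02, -0.2 and 0.02. Pairs of unlike number ran from -0.25, for VQ28OE9 replicate 3 with VQ28KO12 replicate 1, to 0.31, for VQ28OE9 replicate 2 with VQ28KO12 replicate 1. WT was not part of that check. On the third principal component, with 10.8% of the variance, WT replicate 2 (29.2) and VQ28KO12 replicate 2 (28.1) stood apart from the other libraries. What set them apart was not tested. With the replicate number as a block 1055 genes changed, 844 of them among the 1016. Depth limits low genes: 3 fragments are 12 units.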
